A study of Canis lupus familiaris with 6 samples.

Results

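cfa-miR-23a, cfa-miR-23b, cfa-miR-27a, cfa-miR-27b and cfa-miR-24 are the canine members of the miR-23/27/24 clusters, and their signals were read from miRNA arrays of sorted mammary cancer cells. They were chosen by name, as every probe and spot that carried one of these 5 gene names, and they are 5 of the 289 miRNAs on the array. The study measured total RNA of 6 samples, a Sca1+ and a Sca1- fraction from each of 3 canine mammary cancer lines named P114, CMT-U309 and CMT-U27. Sca1 (stem cell antigen 1) is a surface protein; the labels call the sorted Sca1+ cells cancer stem cells and the Sca1- cells the control. No line carries an engineered allele or a drug treatment per the labels, and all lines were kept in serum-containing medium. One label field describes both P114 samples as grown with macrophages and the other samples as a mono-culture, so line and co-culture cannot be told apart if that label is right. Nothing in the labels says how the cultures behind the samples were kept apart, so a p-value here covers just the spread of the samples at hand, which may be technical.

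The miR-23, miR-27 and miR-24 families are encoded in clusters that hold all of them in a row. Vertebrates carry a pair of such clusters, with miR-23a and miR-27a in the one, miR-23b and miR-27b in the other, and the same mature miR-24 made from both. The a and b forms of miR-23, and likewise of miR-27, share their seed, the stretch near the 5′ end that pairs with target mRNAs, and differ near the 3′ end. In mammals the a cluster is known for roles in blood cell, muscle and fat differentiation, the b cluster for angiogenesis and keratinocyte differentiation, and MYC is known to repress miR-23a and miR-23b, which target glutaminase.

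Each member was read by 2 probes of 20 spots each. The sequences of the longer probe of each member are shown because they set what the array can separate: they are antisense to the miRNA, so their 5′ end lies against the 3′ end of the miRNA. They are written 5′ to 3′ as the scanner files give them. Capitals mark the bases at which the a and b probes differ, overhangs included.
cfa-miR-23a: Aaatccctggcaatgtg
cfa-miR-23b: Taatccctggcaatgtg
cfa-miR-27a: cGgaacttagccact
cfa-miR-27b: GcAgaacttagccactGT
cfa-miR-24: cctgttcctgctgaa

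The probes of cfa-miR-23a and cfa-miR-23b have 17 bases, of which 16 match, and the substitution is A1T, counted from the 5′ end of the cfa-miR-23a probe. Those of cfa-miR-27a and cfa-miR-27b match over 14 of 15 aligned bases. Their substitution is G2A, counted from the 5′ end of the cfa-miR-27a probe, and the cfa-miR-27b probe runs 1 base further at its 5′ end and 2 bases further at its 3′ end. The second probe of each member is the first without its last base. Signal of an a form on a b probe, or the reverse, was not tested. cfa-miR-24 has the same pair of probes for both of its loci, so its signal cannot be divided between the clusters.

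The probe mappings in the scanner files, on canFam2, place the a cluster on chromosome 20 and the b cluster on chromosome 1. The longer probes mapped to chr20:51621787-51621802 for cfa-miR-23a, chr20:51622018-51622031 for cfa-miR-27a and chr20:51622147-51622161 for cfa-miR-24, listed in ascending order. On chromosome 1 they mapped in descending order, to chr1:74735012-74735027 for cfa-miR-23b, chr1:74734784-74734800 for cfa-miR-27b and chr1:74734276-74734290 for cfa-miR-24. Each interval is 1 base shorter than its probe, except those of cfa-miR-24. The a cluster thus spanned 375 bases and the b cluster 752 bases, with the order miR-23, miR-27, miR-24 in both. The gap between miR-27 and miR-24 was 115 bases in the a cluster and 493 in the b cluster, while that between miR-23 and miR-27 was 215 and 211 bases. In RefSeq's gene table of another dog assembly (UU_Cfam_GSD_1.0), MIR23A, MIR27A and MIR24-2 lie in no other listed gene, between NANOS3 and ZSWIM4. MIR23B, MIR27B and MIR24-1 lie within FANCC and C1H9orf3 in the same table.

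The arrays differed widely in brightness, and the sources disagree on which sample some of them hold. The 3 bright ones (B1, B2 and B3) detected 89 to 111 miRNAs each, and the 3 dim ones (D1, D2 and D3) detected 39, 22 and 9. Summed signals were 69282 to 70794 intensity units on the bright arrays and 3228, 1277 and 319.5 on the dim ones. By the scanner file attached to each sample, the Sca1+ array was D1 for CMT-U27, B1 for CMT-U309 and D3 for P114, and the Sca1- array was D2, B2 and B3, respectively. The columns of the value table equalled the scanner files of other samples in 4 of 6 cases. By that table, the Sca1+ array was D1 for CMT-U27, D2 for CMT-U309 and B1 for P114, and the Sca1- array was B2, D3 and B3, respectively. D1 and B1 are Sca1+ and B2 and B3 are Sca1- either way, whereas the fraction of D2 and D3 is not settled. All 6 arrays were on 1 slide with 1 scan date. Scanner files were followed unless stated.

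The cells were also checked against markers of cell type. Of 7 epithelial miRNAs, the type expected of a mammary carcinoma, 5 were detected on B1 with a summed signal of 5129, 1 on B2 with 28.9, 1 on D2 with 23.9, and 0 on B3, D1 and D3. miR-200a and miR-200b were detected on no array. Mesenchymal and stromal miRNAs summed to 19.9 on B1, 635 on B2 and 623 on B3, with miR-143, miR-145 and miR-214 on no array. Leukocyte and macrophage miRNAs summed to 959 on B1, 219 on B2, 149 on B3 and 59.6 to 65.7 on the dim arrays, with miR-142 and miR-150 on no array. Endothelial miR-126 and the 4 muscle miRNAs were on no array, and of 2 erythroid miRNAs only miR-451 was found, at 18.1 on B2 and 39.4 on D2. The epithelial and stromal markers therefore moved with the contrast of B1 against B2 and B3. The leukocyte and macrophage miRNAs were also highest on B1 by their sum, with 4 detected on B1 and 2 on each of B2 and B3. The 2 compared on a scaled log2 scale, B1 minus the mean of B2 and B3, went opposite ways, miR-223 at -0.44 and miR-155 at 0.39. The signal of miR-223 was 59.6 to 80.9 on every array, bright or dim. On the dim arrays the sum of this list was miR-223 alone. The part of these markers in the contrast was not tested.

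All 5 members were detected on the bright arrays, and 4, 3 and 1 of them on D1, D2 and D3. The levels below are the total gene signal, the scanner software's sum over the probes of a miRNA, with its own error after ±, in intensity units and not scaled between arrays. cfa-miR-23a, the one member detected on all 6 arrays, was 4516 ± 349 on B1, 4837 ± 384 on B2 and 5470 ± 446 on B3. On the dim arrays it was 232 ± 18.9 on D1, 46.9 ± 5.86 on D2 and 14.6 ± 3.44 on D3. Its bright arrays lay within 1.21-fold of each other, with B1 and B2 inside each other's errors, and each dim array was lower than the one before it by more than the errors.

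cfa-miR-27a, its neighbour on chromosome 20, was at 1855 ± 151 on B1, 2927 ± 237 on B2 and 2786 ± 225 on B3. Among the dim arrays, D1 gave 128 ± 11.5 and D2 14.9 ± 3.80, with D3 below detection. B2 and B3 did not differ beyond their errors, and B1 was below both. cfa-miR-24, made from both clusters, gave 46.5 ± 6.20 on B1, 56.4 ± 9.07 on B2 and 59.6 ± 7.48 on B3, and no dim array detected it. On those 3 arrays the mean spot signal of both of its probes was below 0, so it has no level there. Its 3 bright values overlap within their errors.

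cfa-miR-23b was at 1438 ± 111 on B1, 1854 ± 140 on B2 and 1864 ± 141 on B3. D1 gave 32.8 ± 4.66 and D2 25.8 ± 4.35, with D3 below detection. B2 and B3 were alike within their errors, as were D1 and D2, and B1 lay below B2 and B3. cfa-miR-27b was at 953 ± 71.8 on B1, 1630 ± 122 on B2 and 1473 ± 110 on B3. D1 gave 21.7 ± 3.96, with D2 and D3 below detection. Its order matched that of cfa-miR-27a on the bright arrays, with B1 lowest and B2 and B3 within their errors. Together the 5 members held 12.7%, 15.97% and 16.6% of the summed signal of B1, B2 and B3, and 12.8%, 6.86% and 4.57% of that of D1, D2 and D3.

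**Figure D1:**
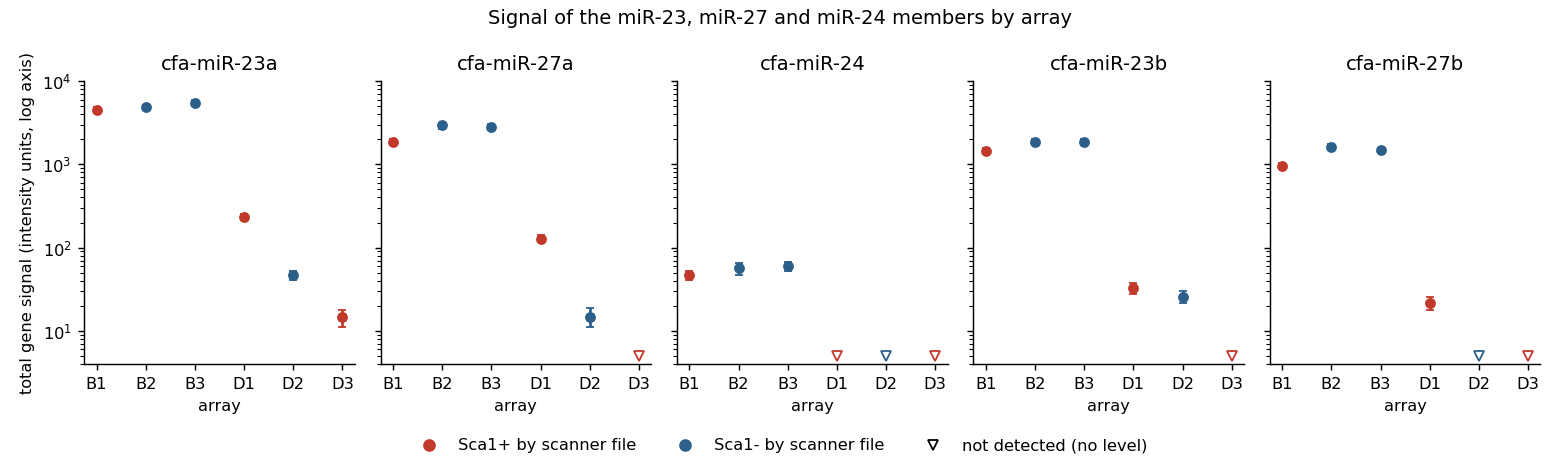
Total gene signal of each member (intensity units, log axis) on each array, with the scanner software's error as bars; red is Sca1+ and blue Sca1- by scanner file, and D2 and D3 have the other fraction by value table. Open triangles mark arrays where the member was not detected and give no level. All 5 members are present on B1 to B3, and cfa-miR-23a alone is present on D3, at 14.6.

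Whether Sca1+ cells differ from Sca1- cells was first asked over all 6 arrays, within lines, with limma on scaled log2 signals. No member passed, and 0 of the 80 miRNAs tested passed either (0% at an adjusted p under 0.05, 0 at an unadjusted p under 0.05). Scaled log2 differences, Sca1+ minus Sca1-, were 0.02 in CMT-U27, -0.88 in CMT-U309 and -2.43 in P114 for cfa-miR-23a, the one member measured in all 3 lines. The mean was -1.09 (SE 1.70, adjusted p = 0.995, limma), with the Sca1+ value lower in 2 of 3 lines. For cfa-miR-27a the differences were 0.91 in CMT-U27 and -1.35 in CMT-U309, and in P114 only the Sca1- array detected it. For cfa-miR-23b they were -1.53 and -1.01 in these lines, again with no level on the Sca1+ array of P114. cfa-miR-24 and cfa-miR-27b were detected in both fractions of CMT-U309 alone, at -1.05 and -1.45.

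The mean differences of the members other than cfa-miR-23a rest in part on arrays without a level, so their sizes have no order. They were -1.11 for cfa-miR-27a, -1.64 for cfa-miR-23b, -1.32 for cfa-miR-27b and -3.11 for cfa-miR-24 (SE 1.66 to 2.40, adjusted p = 0.995 for each, limma), beside a median of -0.81 over the 80 miRNAs. Of these 80, 63 were below 0. The sign of cfa-miR-24 turned under 3 other ways of processing. By value table the differences of cfa-miR-23a were -1.66, 0.70 and -0.92 in CMT-U27, CMT-U309 and P114, so the signs in CMT-U27 and CMT-U309 depend on which assignment holds. In both readings the spread among lines was wider than the mean difference of cfa-miR-23a.

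The bright arrays, on which every member has a level and the fraction is undisputed, allowed a second comparison, of B1 (Sca1+) with B2 and B3 (Sca1-). All 5 members were lower on B1 than on each of B2 and B3, and none passed. Against B2 the scaled log2 difference of cfa-miR-27b was -0.89 and against B3 it was -1.09, a mean of -0.99 (SE 0.29, adjusted p = 0.164, limma). For cfa-miR-27a it was -0.79 and -1.06, a mean of -0.93 (SE 0.30, adjusted p = 0.190, limma). The miR-27 pair gave the only members with an unadjusted p under 0.05. cfa-miR-24 differed by -0.67 (SE 0.33, adjusted p = 0.306, limma), cfa-miR-23b by -0.62 (SE 0.32, adjusted p = 0.323, limma) and cfa-miR-23a by -0.60 (SE 0.39, adjusted p = 0.366, limma).

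The median of the members was -0.67, against 0.18 over the 90 miRNAs tested, of which 40 were below 0. Of those 90, 4 passed (4.44%), all lower on B1, and 23 had an unadjusted p under 0.05. This comparison has 1 array in the Sca1+ group and 1 residual degree of freedom. Its spread is that of B2 and B3, which are from different lines by both readings. limma draws this spread towards one pooled over the 90 miRNAs. In unscaled total gene signal B2 and B3 exceeded B1 by 1.58-fold and 1.502-fold for cfa-miR-27a, by 1.71-fold and 1.55-fold for cfa-miR-27b, and by 1.29-fold and 1.30-fold for cfa-miR-23b. The unscaled excess was 1.21-fold and 1.28-fold for cfa-miR-24 and 1.07-fold and 1.21-fold for cfa-miR-23a.

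The number of members that passed depended on how the background was treated. With normexp background correction all 5 passed (adjusted p 0.000882 to 0.0185, limma), beside 54 of the 90 miRNAs (60%). In that setting the scaled difference of cfa-miR-24 was 0.72, beside a median of 0.55 over all 90. Those of cfa-miR-23a, cfa-miR-23b, cfa-miR-27a and cfa-miR-27b were -0.94, -0.79, -1.15 and -1.01. Normexp here adds an offset of 50 to each spot, whereas the longer cfa-miR-24 probe averaged 21.5 on B1, 27.3 on B2 and 27.2 on B3. The unscaled signal of cfa-miR-24 was lowest on B1. The SE was 0.27 for each member with normexp and 0.43 for each with total gene signals, so it was pooled over miRNAs and not the member's own. With total gene signals cfa-miR-27a (-1.17, adjusted p = 0.0283, limma) and cfa-miR-27b (-1.25, adjusted p = 0.0184, limma) passed, beside 24 of the 90 (26.7%). With quantile scaling the difference of cfa-miR-23a was 0.00 and no member passed. The median of all 90 miRNAs moved from -0.28 to 0.55 among the 6 settings plotted, and cfa-miR-27a, cfa-miR-27b and cfa-miR-23b were below it in each of those plotted.

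**Figure D2:**
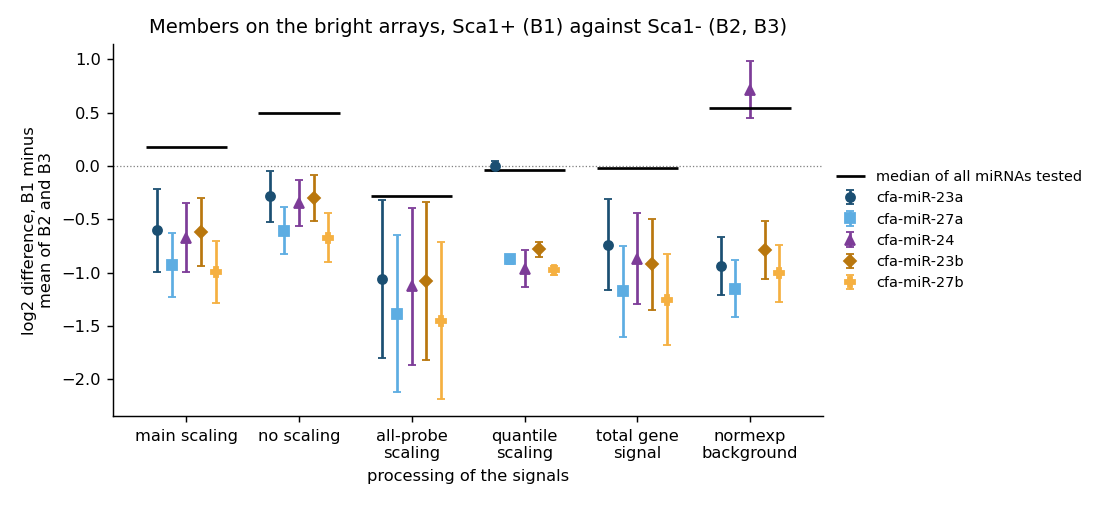
Log2 difference of each member, B1 (Sca1+) minus the mean of B2 and B3 (Sca1-), under 6 ways of processing the signals, with the standard error of the limma fit as bars and the median of all 90 miRNAs as a black line. The miR-27 pair lies below the median in all 6, cfa-miR-23a is at 0.00 with quantile scaling, and cfa-miR-24 lies above 0 with normexp background.

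The 2 probes of cfa-miR-23a did not move together over the bright arrays. The spots of its 17-base probe averaged 2396 (B1), 2709 (B2) and 3133 (B3) in processed signal (SD over spots 165, 172 and 153). Those of its 16-base probe had 934, 888 and 856 (SD 11.98, 16.2 and 13.9). The longer probe was lowest on B1 and the shorter one highest there. The spot ranges of the shorter probe on B1 and B3 do not overlap, but spots give the spread within an array only. Its total probe signals, with the scanner's error, were 1267 ± 127 on B1, 1194 ± 120 on B2 and 1173 ± 117 on B3, which overlap. The signal of the longer over the shorter probe was 2.57 on B1, 3.05 on B2 and 3.66 on B3, a spread of 1.43-fold, the 3rd widest among 44 miRNAs with 2 probes measured on these arrays (median 1.09-fold, highest 1.86-fold). On D1 it was 2.99.

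The other members' probes kept closer, with spreads of 1.05-fold for cfa-miR-27a, 1.07-fold for cfa-miR-27b and 1.19-fold for cfa-miR-23b. cfa-miR-24 could not be set beside them, since only 7, 2 and 14 of the 20 spots of its shorter probe were well above background on B1, B2 and B3. The scaled difference of cfa-miR-23a, B1 minus the mean of B2 and B3, was -0.60 by the 17-base and -0.22 by the 16-base probe. Without scaling it was -0.28 by the longer probe and 0.10 by the shorter, so its direction in unscaled signal rests on the probe. No member spot was saturated on any array.

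**Figure D3:**
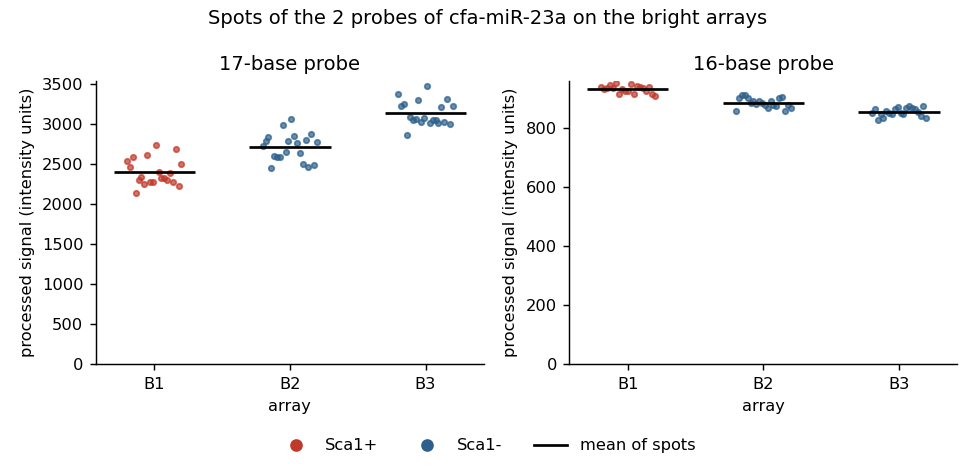
Processed signal (intensity units) of each spot of the 17-base and the 16-base probe of cfa-miR-23a on the bright arrays, with the mean of the spots as a line; B1 is Sca1+ and B2 and B3 are Sca1-. Outlier-marked spots are left out. From B1 to B3 the mean of the longer probe goes from 2396 to 3133 and that of the shorter from 934 to 856.

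Ratios of members within an array do not depend on how arrays are scaled. They were compared only across arrays, because probes differ in brightness and a ratio does not give relative abundance. The a and b forms kept nearly the same ratio on the 3 bright arrays, whatever the fraction. Their probes differ at 1 aligned base, and signal of an a form on a b probe, or the reverse, was not tested. The total gene signal of cfa-miR-23a over that of cfa-miR-23b was 3.14 ± 0.344 on B1, 2.61 ± 0.286 on B2 and 2.93 ± 0.326 on B3 (± the error from the scanner). That of cfa-miR-27a over cfa-miR-27b was 1.95 ± 0.216, 1.80 ± 0.198 and 1.89 ± 0.208. For both pairs the bright arrays overlap within these errors, and with 1 Sca1+ array among them the difference was not tested.

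On D1 both ratios were higher than on any bright array. cfa-miR-23a over cfa-miR-23b was 7.08 ± 1.16 there, and cfa-miR-27a over cfa-miR-27b was 5.92 ± 1.20. These total gene signals count 2 probes of each a form and 1 probe of each b form on D1, since the shorter b probes fell under the limit of the software. With the longer probe alone of each member, the miR-23 ratio was 3.14 on B1, 2.86 on B2, 3.37 on B3 and 5.30 ± 0.928 on D1. The miR-27 ratio was then 2.25, 2.10, 2.20 and 4.66 ± 0.982. D1 exceeded the mean of the bright arrays by 0.77 (1.70-fold) for miR-23 and 1.096 (2.14-fold) for miR-27 on the log2 scale. The SDs among the bright arrays were 0.12 and 0.05. The longer b probes averaged 477 to 947 per spot on those arrays, and 24.7 and 16.3 on D1. These SDs therefore do not measure the spread of a ratio on D1.

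With the array's negative-control mean subtracted from both longer probes, the excess on D1 was 0.96 for the miR-23 and 1.40 for the miR-27 ratio. With normexp background it was -0.34 and -0.15, so the direction turned there. That setting adds an offset of 50 to each spot, more than the longer probes of both b forms gave on D1. With it the D1 ratios were 2.26 for miR-23 and 1.80 for miR-27. The longer probes of cfa-miR-23b and cfa-miR-27b had mean spot signals of 24.7 and 16.3 on D1, with all 20 spots of each well above background, beside a negative-control mean of 3.81. D2 gave a cfa-miR-23a over cfa-miR-23b ratio of 1.82 ± 0.381 from 1 probe of each, below all bright arrays. D1 and D2, the fractions of CMT-U27 by scanner file, therefore stood on opposite sides of the bright arrays, and by value table these arrays are from different lines. Both are single arrays, so the spread within a group is unknown.

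**Figure D4:**
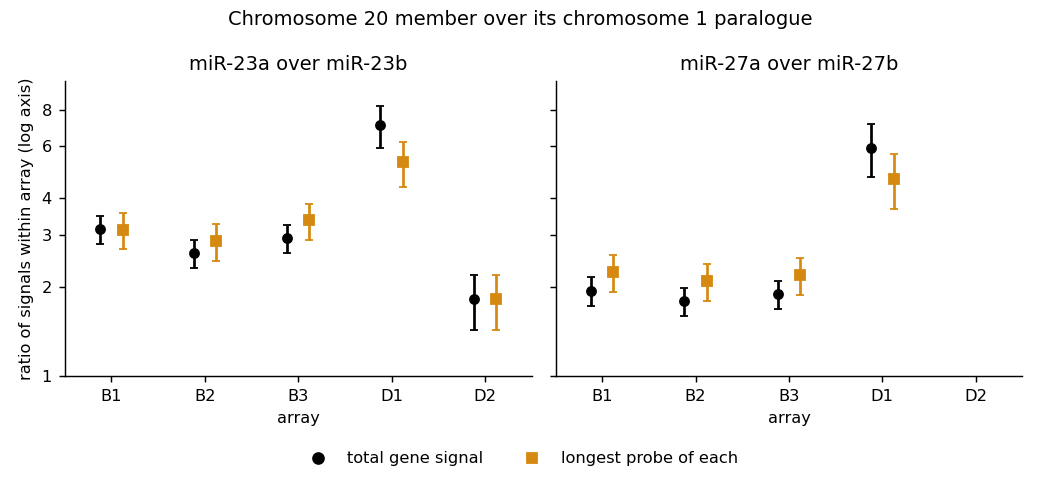
Ratio within each array (log axis) of the member on chromosome 20 over its paralogue on chromosome 1, for miR-23 on the left and miR-27 on the right, from total gene signals (circles) and from the longest probe of each member (squares), with the scanner error as bars. The miR-23 ratios are 2.61 to 3.37 on B1 to B3, 5.30 and 7.08 on D1 and 1.82 on D2; cfa-miR-27b has no level on D2, and no ratio exists on D3.

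Ratios of miR-23 to miR-27 within a cluster differed more between the bright arrays than those of an a form to its b form. cfa-miR-23a over cfa-miR-27a was 2.43 ± 0.273 on B1, 1.65 ± 0.187 on B2 and 1.96 ± 0.225 on B3. cfa-miR-23b over cfa-miR-27b was 1.51 ± 0.163 on B1, 1.14 ± 0.121 on B2 and 1.27 ± 0.134 on B3. Among the bright arrays, B1 had the highest ratio of miR-23 to miR-27 in both clusters, by 0.43 on the log2 scale in the a cluster and 0.33 in the b cluster over the mean of B2 and B3. B1 and B3 are not apart by more than both their errors in either cluster. On D1 these ratios were 1.81 ± 0.219 in the a cluster and 1.51 ± 0.350 in the b cluster. On D2 the a cluster gave 3.16 ± 0.898 from 1 probe of each member, the highest value of any array, with an error that overlaps that of B1. cfa-miR-27b has no level on D2, and no ratio to cfa-miR-24 exists on a dim array.

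cfa-miR-23a was set against the 8 other miRNAs detected on all arrays (miR-494, miR-365, miR-223, miR-149 and miR-21 with let-7f, let-7b and let-7a), which needs no scaling. The log2 ratio to their mean was 2.03 on B1, 2.31 on B2 and 2.37 on B3, and 1.27, -0.44 and -1.20 on D1, D2 and D3. Sca1+ minus Sca1- was 1.71 in CMT-U27, -0.28 in CMT-U309 and -3.58 in P114, so the lines did not go one way (mean -0.72, SD 2.67, n = 3 lines, exact two-sided sign-flip permutation p = 0.75, where 0.25 is the smallest this design allows). Without P114 the mean was 0.72. Against single references the mean ranged from -2.02 for miR-223 to 0.34 for miR-21, and adjusted over the 8 references each permutation p, exact, was 1. The signal of miR-223 was 59.6 to 80.9 on all 6 arrays, bright and dim, so a ratio to it follows the brightness of the array. The ratio to miR-149 also fell, from 45.1 to 100 on the bright arrays to 5.84, 1.22 and 0.436 on D1, D2 and D3. That to miR-21 did not, at 0.151 to 0.249 on the bright arrays and 0.243 to 0.416 on the dim ones. The ratio to the mean was lower on each dim array than on the bright ones, so fraction and brightness cannot be told apart in P114. The same holds in CMT-U27, where the Sca1+ array D1 was brighter than D2 and had the higher ratio.

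The lines were compared with the fraction as a term, in a moderated F test that carries no direction. No member passed (adjusted p 0.888 to 0.901, limma), nor did any of the 80 miRNAs (0%, with 4 at an unadjusted p under 0.05). With arrays assigned by value table, 14 of 80 passed (17.5%) and again no member did, the lowest adjusted p of a member being that of cfa-miR-24 at 0.127 (limma). By that table CMT-U309 holds the dim arrays D2 and D3, and P114 the bright arrays B1 and B3. By scanner file CMT-U27 holds the dim arrays D1 and D2. Line and brightness thus cannot be told apart in either reading. Without D3, the Sca1+ array of P114, 7 of 80 passed (8.75%), among them cfa-miR-24 (adjusted p = 0.0274, limma), which had no level on either CMT-U27 array. Its bright signal was too low to bound a fold against those arrays.

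By the SD of the within-array log2 ratio over the 3 bright arrays, 73 other miRNAs were ranked for likeness to each member. cfa-miR-27b was followed most closely by miR-29b (SD 0.039), then miR-21 (0.096) and miR-29a (0.16). cfa-miR-27a had the same leading pair, miR-29b (0.095) and miR-21 (0.12), then miR-151 (0.13). miR-29b was 1078 on B1, 1939 on B2 and 1735 on B3, and miR-21 was 18172, 32139 and 31945, both lowest on B1 as the miR-27 pair was. The median SD over the 73 was 0.80 for cfa-miR-27a and 0.84 for cfa-miR-27b.

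The miR-23 pair and cfa-miR-24 had other neighbours. cfa-miR-23a was followed by miR-365 (SD 0.090), miR-320 (0.11) and miR-22 (0.13), cfa-miR-23b by miR-151 (0.062), miR-26b (0.11) and miR-22 (0.13), and cfa-miR-24 by miR-151 (0.076), miR-22 (0.10) and miR-26b (0.11). Among the members, cfa-miR-24 and cfa-miR-23b had an SD of 0.048, cfa-miR-27a and cfa-miR-27b 0.059, cfa-miR-23a and cfa-miR-24 0.089, and cfa-miR-23a and cfa-miR-23b 0.14. The widest were cfa-miR-23a with cfa-miR-27a at 0.28 and with cfa-miR-27b at 0.34, so each a form kept closer to its b form than cfa-miR-23a and cfa-miR-27a, from 1 cluster, kept to each other. These are descriptions over 3 arrays that share a slide, with no test. What the likeness of the a and b probes adds to these SDs was not tested.

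Other miRNAs tied to the same biology were read in the bright comparison. MYC also represses many miRNAs, and of 17 tested from a list of 21 such miRNAs, 1 passed as lower on B1, miR-34a, with 7 below and 10 above 0 and a median of 0.18, equal to that of all 90. Its brightest members were let-7a (0.18), let-7f (0.25), miR-29b (-1.11) and miR-16 (0.31), none of which passed. Of 6 vascular miRNAs tested, 0 passed, 3 were below 0 and the median was -0.29; miR-221, which targets cell cycle inhibitors, was 175 on B1, 746 on B2 and 667 on B3 (-2.27, SE 0.29, adjusted p = 0.0519, limma). Of the miRNAs induced by TGF-beta signalling, 2 were tested and 0 passed, miR-21 at -1.15 and miR-155 at 0.39. miR-128, whose seed overlaps that of miR-27, was 47.4 on B1, 23.8 on B2 and 23.3 on B3 (0.17, adjusted p = 0.728, limma). miR-181d, encoded near the a cluster in mammals, was 89.8, 139.7 and 69.5 on B1, B2 and B3, and miR-181c, from the same locus, was detected on no array.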

How the data were processed

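Total RNA was labelled and hybridized to 1-colour Agilent miRNA arrays. The deposited scanner files hold the intensity of every spot, made with Agilent Feature Extraction (10.10.1.1 per the file headers, 10.7.3.1 per the submitters' processing notes), background-subtracted and not scaled between arrays. The labels name Cy5, whereas each file holds 1 green channel. The deposited value table holds the same total gene signal intensity, assigned to samples differently.

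Members and lists were chosen with earlier results of these data known. Intensities not above 0 took the lowest positive value of their array. The normexp background correction, an alternative setting, added an offset of 50 to each spot. Log2 intensities were scaled by each array's 75th percentile over probes well above background on all arrays used (10 probes of 6 miRNAs for 6 arrays, 122 probes for the 3 bright arrays). Spots were averaged without outlier-marked ones, and a miRNA took its brightest probe. miRNAs detected on at least 3 arrays, or 2 bright ones, were tested with lmFit and eBayes (limma 3.58.1, R 4.3.3, data.table version 1.17.8; other steps in Python 3.11.15), with Benjamini-Hochberg adjustment over all miRNAs tested and a threshold of 0.05. The Sca1 fit had the line as a block, since both fractions came from it, which left 2 residual degrees of freedom. The fit was tested on simulated data. Bright arrays are those with over 50 detected miRNAs. Named miRNAs were all members, those detected on all arrays, the 3 closest to each member by SD of the log2 ratio, and up to 4 of the brightest in each list. miR-34a, miR-181c, miR-181d and miR-451 were named after their values were seen. Mature miRNA sequences were not used here. The number of arrays limits the precision.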

Additional observations from a re-analysis of the deposited data

Results flagged for a closer look

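The log2 ratio of cfa-miR-23a to the mean of the 8 other miRNAs detected on all arrays moved in opposite directions between the lines. Sca1+ minus Sca1- was 1.71 in CMT-U27, -0.28 in CMT-U309 and -3.58 in P114, by scanner file. Each line has 1 sample per fraction, and the difference between the lines was not tested. Both CMT-U27 arrays and the Sca1+ array of P114 were dim, with 39, 22 and 9 detected miRNAs. The ratio was lower on each dim array than on the bright ones, so fraction and brightness cannot be told apart in P114. Nor can they in CMT-U27, where the Sca1+ array had 39 detected miRNAs and the Sca1- array 22.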

How the results depend on the processing

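Over all 6 arrays, 0 members and 0 miRNAs passed the Sca1 test under each of 17 alternatives, the fit with no replicate block among them (0 passed), and leaving out single arrays gave 0 to 0. cfa-miR-24 turned sign there with normexp background (0.88), a floor at the detection limit (0.51) and total gene signals (0.43). On the bright arrays the members past the threshold went from 0 to 5 with normexp background (cfa-miR-24 at 0.72, turned) and 2 with total gene signals, and stayed at 0 under 7 others. The count of all miRNAs went from 4 to 54 with normexp, 24 with total gene signals, 11 with scaling over all probes or with the floor, 8 for miRNAs detected on all arrays, 2 with the mean of all probes, and 0 with quantile scaling or no filter. Leaving out B1, B2 or B3 leaves no test there. Among lines, the count went from 0 to 14 by value table, where line and brightness cannot be told apart, and 1 with total gene signals. Leaving out a single array leaves 1 array in its line, so no count is read from those fits. The excess of the miR-23a over miR-23b ratio on B1 was 0.18 in the main setting, 0.014 with the brightest probe, 0.015 with the longest probe or with negative controls subtracted, -0.0070 with the median of spots and -0.15 with normexp. For miR-27a over miR-27b it was 0.08, and -0.14 with normexp. The excess on D1 was 1.29 for miR-23, then 0.77 with the brightest or longest probe, 0.80 with the median of spots, 0.96 with negative controls subtracted and -0.34 with normexp. For miR-27 it was 1.66, then 1.11, 1.096, 1.17, 1.40 and -0.15. Probe choices after seeing the data were the longest probe, the negative-control subtraction and the 16-base probe. Against the mean of the references, cfa-miR-23a ran from -1.93 to 0.72 when a line was left out. By value table it turned to 0.10 for let-7a, 0.32 for let-7b, 0.0067 for let-7f and 0.32 for miR-365. With lines left out, the ranges were -1.17 to 0.18 for let-7a, -1.86 to 1.13 for let-7b, -3.08 to 1.71 for miR-149, -4.11 to 1.14 for miR-223, -1.97 to 1.18 for miR-365 and -2.93 to 0.35 for miR-494. The causes were not tested. Member signals near or below the detection limit on D2 and D3 limit what these arrays can show.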
